A study of Homo sapiens with 24 samples.

Results

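TNNC1, PROK1, EDIL3, NRG1, OLFML1 and LUM are 6 of the 58174 gene symbols measured in HEK293A cells, a line of adherent cells from human embryonic kidney. They were chosen by their FPKM values, low in wild-type cells and high in cells lacking LATS1 and LATS2, so the difference between them is described here and not tested. FPKM is the number of fragments per kilobase of transcript, scaled for the depth of the library. The lines were labelled LATS1/2-dKO, RAP2A/B/C-tKO, YAP/TAZ-dKO and WT. Each was grown on fibronectin-coated hydrogels of 40 kPa or 1 kPa in medium with serum and with no other treatment, which gives 8 groups of 3 libraries and 24 libraries in all. The design text calls the replicates biological. The editing method and the number of clones per line are not stated in the labels, so the effect of a genotype and that of a clone cannot be told apart.

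LATS1 and LATS2 are the kinases of the Hippo pathway that phosphorylate the coactivators YAP and TAZ and keep them out of the nucleus. YAP and TAZ have no DNA-binding domain of their own and act on genes mainly through TEAD transcription factors. RAP2A, RAP2B and RAP2C are small GTPases, and the series asks how they and the Hippo pathway take part in the response of cells to matrix stiffness. The 6 genes encode different kinds of protein. PROK1 (prokineticin 1) is a secreted ligand of G protein-coupled receptors, and NRG1 (neuregulin 1) is an EGF-family ligand of ERBB3 and ERBB4. EDIL3 is a secreted protein with EGF-like and discoidin domains that binds integrins. LUM (lumican) is a small leucine-rich proteoglycan that binds collagen fibrils, and OLFML1 is a secreted protein with an olfactomedin domain. TNNC1 is the calcium-binding troponin C of cardiac and slow skeletal muscle.

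From the RefSeq promoter table, on build GRCh38.p14, windows were read for 2 of the 6, PROK1 and EDIL3. The table held none for TNNC1, OLFML1 and LUM. NRG1 was left out of the search, so nothing is said of its promoter. The windows of PROK1 and EDIL3 are shown because no other member had a window that was read. The 250 bases upstream of the start are at chr1:110450899-110451148 on the plus strand for PROK1 and at chr5:84384881-84385130 on the minus strand for EDIL3. Capitals mark a CCAAT box, read on the other strand as ATTGG, in PROK1 and overlapping GC boxes (GGGCGG) in EDIL3.
PROK1: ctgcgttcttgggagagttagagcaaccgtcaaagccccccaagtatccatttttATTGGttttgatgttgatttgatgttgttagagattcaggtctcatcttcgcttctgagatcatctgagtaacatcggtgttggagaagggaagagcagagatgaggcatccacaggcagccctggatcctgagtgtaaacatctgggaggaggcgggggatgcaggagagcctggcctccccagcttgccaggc
EDIL3: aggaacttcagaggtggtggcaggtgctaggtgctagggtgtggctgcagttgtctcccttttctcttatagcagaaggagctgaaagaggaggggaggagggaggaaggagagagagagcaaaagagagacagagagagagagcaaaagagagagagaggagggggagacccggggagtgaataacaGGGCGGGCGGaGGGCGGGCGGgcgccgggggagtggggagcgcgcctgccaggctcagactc
The TEAD core GGAATG, the AP-1 motif TGANTCA and the CArG box of SRF had 0 matches on either strand in both windows. Of all 35116 windows of the same length, 11.9% held the TEAD core, 6.57% the AP-1 motif and 1.16% a CArG box. CCAAT had 1 match in PROK1 and 0 in EDIL3, against 32.0% of all windows with a match. The GC box had 4 matches in EDIL3 and 0 in PROK1, against 42.6% of all windows, and TATAAA had 0 in both, against 10.7%. These last 3 motifs were added after the first 3 had been searched. GC content was 51.6% in the PROK1 window and 61.2% in that of EDIL3, with a median of 58.0% over all windows. A further window of EDIL3, which overlaps the one shown, gave the same motif counts and a GC content of 62.8%.

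The 6 genes lie on 6 chromosomes. In the hg19 coordinates of the deposited tables, TNNC1 (ENSG00000114854) is at chr3:52485118-52488086, PROK1 (ENSG00000143125) at chr1:110993822-110999976 and EDIL3 (ENSG00000164176) at chr5:83236373-83680611. NRG1 (ENSG00000157168) is at chr8:31496902-32622548, OLFML1 (ENSG00000183801) at chr11:7506619-7532608 and LUM (ENSG00000139329) at chr12:91496406-91505608. TNNC1, EDIL3 and LUM are on the minus strand and the other 3 on the plus strand. The values are gene-level sums over transcripts, so they do not tell which isoform of NRG1 or of another member was present.

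All 6 genes had a higher FPKM in every LATS1/2-dKO library than in any library of the other lines. Of the genes tested, 8.83% had all 6 LATS1/2-dKO libraries above all 6 WT libraries, and 5.96% had them above all 6 RAP2A/B/C-tKO libraries. No share is given for YAP/TAZ-dKO, and the separation from WT goes with the choice of the genes. Below the LATS1/2-dKO line the genes parted. TNNC1 and LUM were measurable in WT, higher in the mean of RAP2A/B/C-tKO and lowest in YAP/TAZ-dKO. EDIL3 was highest, after LATS1/2-dKO, in the mean of YAP/TAZ-dKO. FPKM is per length, so the 6 levels can be set side by side, and in LATS1/2-dKO their means ran from 5.93 for NRG1 to 25.3 for TNNC1.

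**Figure D1:**
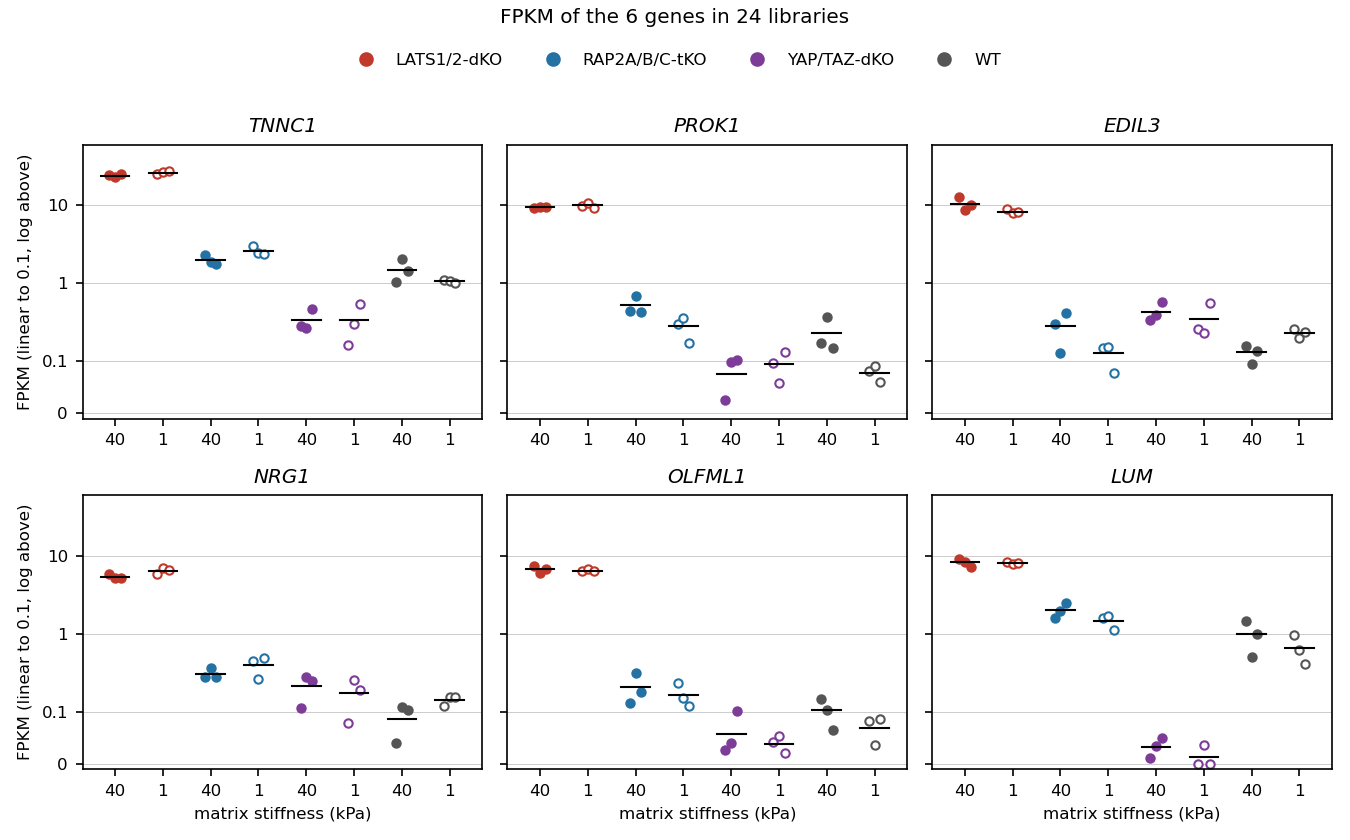
FPKM of each of the 6 genes (vertical axis, linear up to 0.1 and logarithmic above) in the 24 libraries, by genotype and stiffness (horizontal axis, kPa; filled points 40 kPa, open points 1 kPa). Points are libraries and lines are group means (n = 3); every LATS1/2-dKO library lies above all others, and LUM in YAP/TAZ-dKO reaches no more than 0.05.

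The secreted ligands come first. PROK1 had 9.37, 9.48 and 9.46 FPKM at 40 kPa and 9.87, 10.9 and 9.4 FPKM at 1 kPa in LATS1/2-dKO. The RAP2A/B/C-tKO libraries had 0.446, 0.687 and 0.435 FPKM at 40 kPa and 0.304, 0.365 and 0.174 FPKM at 1 kPa. The 6 LATS1/2-dKO libraries were close to each other, and the lowest stood far above the highest of RAP2A/B/C-tKO. PROK1 had 0.0261, 0.0981 and 0.104 FPKM at 40 kPa and 0.0975, 0.058 and 0.132 FPKM at 1 kPa in YAP/TAZ-dKO. The WT libraries had 0.171, 0.377 and 0.15 FPKM at 40 kPa and 0.0826, 0.0905 and 0.0607 FPKM at 1 kPa. All 6 RAP2A/B/C-tKO libraries were above all 6 of YAP/TAZ-dKO, and the WT libraries overlapped both. PROK1 averaged 9.74 ± 0.58 FPKM in LATS1/2-dKO and 0.155 ± 0.116 FPKM in WT (SD, n = 6 each), a ratio of 62.8.

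NRG1 had 5.8, 5.2 and 5.17 FPKM at 40 kPa and 5.89, 6.9 and 6.62 FPKM at 1 kPa in LATS1/2-dKO. RAP2A/B/C-tKO libraries had 0.277, 0.363 and 0.283 FPKM at 40 kPa and 0.456, 0.262 and 0.484 FPKM at 1 kPa. Among these lines no library overlapped. NRG1 had 0.111, 0.281 and 0.25 FPKM at 40 kPa and 0.079, 0.255 and 0.189 FPKM at 1 kPa in YAP/TAZ-dKO, against 0.0406, 0.115 and 0.106 FPKM at 40 kPa and 0.12, 0.154 and 0.155 FPKM at 1 kPa in WT. The YAP/TAZ-dKO libraries overlapped those of WT and those of RAP2A/B/C-tKO. NRG1 was the member of the 6 whose RAP2A/B/C-tKO libraries all stood above all WT libraries, a pattern found in 3.19% of the genes tested. The widths of the deposited confidence intervals correspond to a median of 0.724 fragments per WT library and 136.0 per LATS1/2-dKO library, so the order of the low groups rests on very few fragments.

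EDIL3 had 12.7, 8.86 and 10.0 FPKM at 40 kPa and 8.91, 8.01 and 8.14 FPKM at 1 kPa in LATS1/2-dKO. In RAP2A/B/C-tKO it had 0.3, 0.129 and 0.417 FPKM at 40 kPa and 0.148, 0.154 and 0.0785 FPKM at 1 kPa. LATS1/2-dKO was again far above. EDIL3 had 0.34, 0.39 and 0.579 FPKM at 40 kPa and 0.258, 0.229 and 0.558 FPKM at 1 kPa in YAP/TAZ-dKO. The WT libraries had 0.159, 0.0953 and 0.137 FPKM at 40 kPa and 0.263, 0.2 and 0.242 FPKM at 1 kPa. The 3 low lines overlapped one another, with the highest values in YAP/TAZ-dKO. The intervals correspond to medians of 146.0 fragments per library in LATS1/2-dKO, 2.42 in RAP2A/B/C-tKO, 7.45 in YAP/TAZ-dKO and 2.96 in WT.

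The transcript of EDIL3 has a GC content of 36.6% and that of LUM 36.3%, at the percentiles 1.7 and 1.41 of the genes tested (median 49.6%). The deviation of a gene from the mean of its group fell most steeply with GC content in replicate 1 of LATS1/2-dKO at 40 kPa (rank correlation -0.622 across genes) and replicate 3 of RAP2A/B/C-tKO at 40 kPa (-0.64). The other libraries of these groups rose with GC content, by 0.518 and 0.427 in LATS1/2-dKO and by 0.578 and 0.53 in RAP2A/B/C-tKO. In the other 6 groups the coefficients ran from -0.365 to 0.316. EDIL3 and LUM were each highest of their group in these libraries. Both transcripts therefore stood high where AT-rich genes stood high, and the part of library composition in those 2 values was not tested.

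LUM had 9.02, 8.44 and 7.3 FPKM at 40 kPa and 8.47, 7.92 and 8.12 FPKM at 1 kPa in LATS1/2-dKO. Its RAP2A/B/C-tKO values were 1.6, 1.99 and 2.48 FPKM at 40 kPa and 1.61, 1.68 and 1.13 FPKM at 1 kPa. LUM had the smallest ratio of LATS1/2-dKO to RAP2A/B/C-tKO among the 6, 4.69, against 24.2 for PROK1 and 46.2 for EDIL3. In YAP/TAZ-dKO, LUM had 0.0106, 0.0353 and 0.05 FPKM at 40 kPa, and at 1 kPa it had 0.0372 FPKM in 1 library and was listed at 0 in the other 2. The WT libraries had 1.48, 0.499 and 1.01 FPKM at 40 kPa and 0.969, 0.627 and 0.408 FPKM at 1 kPa. Every YAP/TAZ-dKO library was below every WT library, as for 20.0% of the genes tested, and RAP2A/B/C-tKO and WT overlapped. LUM averaged 8.21 ± 0.582 FPKM in LATS1/2-dKO, 1.75 ± 0.449 FPKM in RAP2A/B/C-tKO and 0.833 ± 0.402 FPKM in WT (SD, n = 6 each).

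OLFML1 had 7.5, 6.08 and 6.76 FPKM at 40 kPa and 6.39, 6.7 and 6.37 FPKM at 1 kPa in LATS1/2-dKO. Values in RAP2A/B/C-tKO were 0.131, 0.314 and 0.181 FPKM at 40 kPa and 0.233, 0.15 and 0.118 FPKM at 1 kPa. No library overlapped between these lines. OLFML1 had 0.0266, 0.0393 and 0.104 FPKM at 40 kPa and 0.0427, 0.0536 and 0.0202 FPKM at 1 kPa in YAP/TAZ-dKO, against 0.146, 0.107 and 0.0652 FPKM at 40 kPa and 0.0832, 0.0362 and 0.0866 FPKM at 1 kPa in WT. RAP2A/B/C-tKO was above YAP/TAZ-dKO in every library, and both overlapped WT. The intervals correspond to 131.0 to 347.0 fragments per LATS1/2-dKO library and to medians of 2.66 fragments in RAP2A/B/C-tKO, 0.366 in YAP/TAZ-dKO and 0.811 in WT, so OLFML1 was barely detected outside LATS1/2-dKO.

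TNNC1, the one intracellular protein of the 6, had 24.4, 22.9 and 25.2 FPKM at 40 kPa and 25.2, 26.7 and 27.3 FPKM at 1 kPa in LATS1/2-dKO. In RAP2A/B/C-tKO it had 2.31, 1.86 and 1.78 FPKM at 40 kPa and 3.01, 2.48 and 2.36 FPKM at 1 kPa. LATS1/2-dKO was about 1 order of magnitude higher. TNNC1 had 0.283, 0.271 and 0.469 FPKM at 40 kPa and 0.162, 0.298 and 0.548 FPKM at 1 kPa in YAP/TAZ-dKO. The WT libraries had 1.03, 2.07 and 1.43 FPKM at 40 kPa and 1.1, 1.09 and 1.01 FPKM at 1 kPa. Every YAP/TAZ-dKO library was below every WT library, the separation shared by 20.0% of the genes tested, and RAP2A/B/C-tKO overlapped WT through the highest WT library. TNNC1 averaged 25.3 ± 1.57 FPKM in LATS1/2-dKO and 1.29 ± 0.413 FPKM in WT (SD, n = 6 each), a ratio of 19.6, the second lowest of the 6 after 9.86 for LUM.

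On the log2(FPKM + 1) scale, which understates the change of low genes, the LATS1/2-dKO minus WT differences were 3.54 for TNNC1, 3.22 for PROK1, 3.13 for EDIL3, 2.81 for OLFML1, 2.63 for NRG1 and 2.35 for LUM. With a pseudocount of 0.1 they ran from 3.26 for LUM to 5.37 for PROK1. Of the 15828 genes tested, 33.9% were called in this comparison at an adjusted p below 0.05 and 16.0% were called higher, and nothing is read from the members here because it chose them. Between 4 genes, for TNNC1, and 36 genes, for LUM, had a larger difference in size. EDIL3, NRG1, OLFML1 and PROK1 passed the filter of 1 FPKM in 3 libraries through the LATS1/2-dKO libraries alone. As a frame, 15 genes had a mean below 1 FPKM in WT and of at least 5 FPKM in LATS1/2-dKO at both stiffnesses. They held 5 of the 6 members. TNNC1 was just outside, with WT means of 1.07 FPKM at 1 kPa and 1.51 FPKM at 40 kPa, both above the limit. NRG1, at 5.93 FPKM in LATS1/2-dKO, was just inside. The other 10 were the collagens COL3A1 (9.88 FPKM in LATS1/2-dKO and 0.216 FPKM in WT) and COL12A1 (9.59 FPKM in LATS1/2-dKO and 0.505 FPKM in WT), and 8 short RNAs or clone names.

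**Figure D2:**
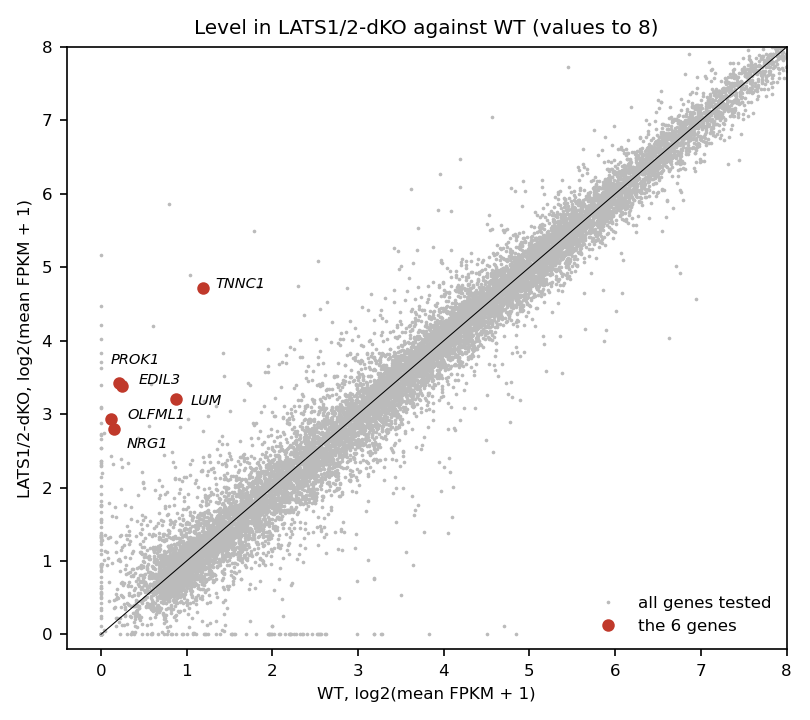
Mean level in LATS1/2-dKO (vertical axis) against WT (horizontal axis), both as log2(mean FPKM + 1) over 6 libraries, for the genes tested with values up to 8 (grey) and the 6 genes (red). The diagonal is equal level; the 6 genes lie well above it, with LUM and TNNC1 farthest right.

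The lines labelled RAP2A/B/C-tKO and YAP/TAZ-dKO took no part in choosing the genes, and their difference was tested. In this comparison 51.9% of all genes tested were called, 26.5% higher and 25.4% lower in RAP2A/B/C-tKO, so a call by itself sets no gene apart. EDIL3, NRG1, OLFML1 and PROK1 were below 1 FPKM in every library of both lines. They entered the test through their LATS1/2-dKO libraries alone, so their calls are not counted and their p-values are given as a description. Median fragments per RAP2A/B/C-tKO and YAP/TAZ-dKO library were 15.3 and 2.95 for PROK1 and 2.42 and 7.45 for EDIL3. For NRG1 they were 3.02 and 1.36, and for OLFML1 2.66 and 0.366. LUM differed by 1.41 on the log2(FPKM + 1) scale (95% interval 1.18 to 1.64, limma adjusted p = 3.14e-09) and TNNC1 by 1.30 (1.11 to 1.49, limma adjusted p = 6.18e-10). Of all genes tested, 306 differed by more in size than LUM and 407 by more than TNNC1. PROK1 differed by 0.36 (0.23 to 0.49, limma adjusted p = 7.73e-05), OLFML1 by 0.18 (0.06 to 0.30, limma adjusted p = 0.0131) and NRG1 by 0.18 (0.05 to 0.31, limma adjusted p = 0.0208). With no filter on low values the limma adjusted p was 0.000194 for PROK1, 0.0156 for OLFML1 and 0.0333 for NRG1. The size of these differences follows the pseudocount: with 0.1 in place of 1 they were 3.90 for LUM, 2.50 for TNNC1, 1.39 for PROK1, 0.95 for OLFML1, 0.65 for NRG1 and -0.74 for EDIL3.

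EDIL3 averaged 0.204 ± 0.128 FPKM in RAP2A/B/C-tKO and 0.392 ± 0.148 FPKM in YAP/TAZ-dKO (SD, n = 6 each). The difference was -0.21 on the log2(FPKM + 1) scale (95% interval -0.38 to -0.04, limma adjusted p = 0.0419), and the libraries overlapped. This call was kept in 9 of 19 alternatives, with adjusted p between 0.00671 and 0.128. It was lost without any 1 of the 3 RAP2A/B/C-tKO libraries at 1 kPa, replicate 1 or 2 of RAP2A/B/C-tKO at 40 kPa, replicate 3 of YAP/TAZ-dKO at 1 kPa or replicate 2 or 3 of YAP/TAZ-dKO at 40 kPa, with adjusted p of 0.0519 to 0.128, and with no filter (0.084) or the compared groups alone (0.0779). The call of NRG1 was kept in 15 of 19, with adjusted p between 0.00765 and 0.0653. It was lost without replicate 3 of RAP2A/B/C-tKO at 1 kPa (adjusted p = 0.0555), replicate 1 of YAP/TAZ-dKO at 1 kPa (0.0613) or replicate 1 of YAP/TAZ-dKO at 40 kPa (0.062), and with the compared groups alone (0.0653). The calls of TNNC1, PROK1, OLFML1 and LUM were kept in all 19 alternatives. For these 4 genes all 6 RAP2A/B/C-tKO libraries were above all 6 YAP/TAZ-dKO libraries, as they were for 16.8% of the genes tested. An exact two-sided permutation test over libraries within each stiffness gave p = 0.005 for these 4 genes, the smallest value that its 400 arrangements allow, 0.01 for NRG1 and 0.015 for EDIL3. Without both libraries that follow GC content, EDIL3 differed by -0.25 (limma adjusted p = 0.008).

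**Figure D3:**
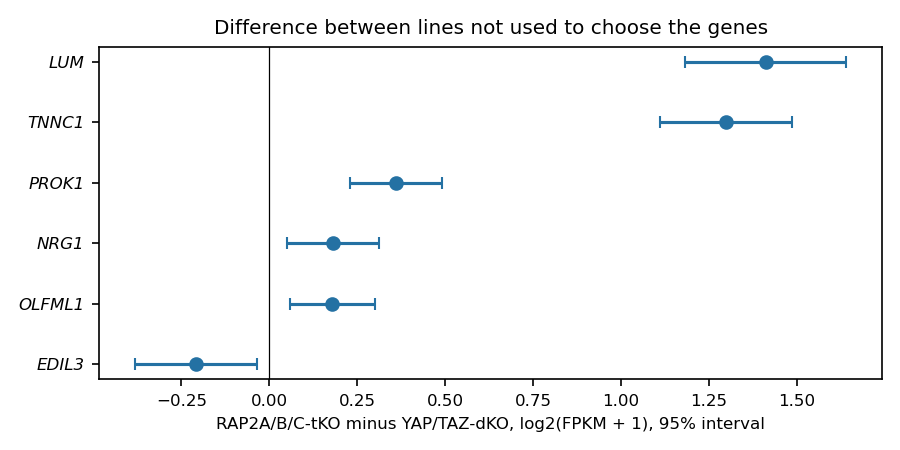
Difference RAP2A/B/C-tKO minus YAP/TAZ-dKO on the log2(FPKM + 1) scale (horizontal axis) for each of the 6 genes, with 95% intervals from limma (6 libraries per genotype). LUM and TNNC1 lie beyond 1, PROK1, NRG1 and OLFML1 between 0 and 1, and EDIL3 below 0.

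Set against WT, whose libraries were used in the choice, the differences are a description. Both comparisons below share the WT libraries. In RAP2A/B/C-tKO minus WT, LUM stood at 0.60, TNNC1 at 0.54, NRG1 and PROK1 at 0.28 each, OLFML1 at 0.13 and EDIL3 at 0.02. In YAP/TAZ-dKO minus WT, LUM stood at -0.82, TNNC1 at -0.76, PROK1 at -0.08, OLFML1 at -0.05, NRG1 at 0.10 and EDIL3 at 0.23. The order LATS1/2-dKO, RAP2A/B/C-tKO, WT, YAP/TAZ-dKO of the genotype means was thus shared by TNNC1, PROK1, OLFML1 and LUM. For PROK1 and OLFML1 the last step was small, and the WT and YAP/TAZ-dKO libraries overlapped. At 1 kPa PROK1 had the reverse order, 0.0779 FPKM in WT and 0.0956 FPKM in YAP/TAZ-dKO. NRG1 had YAP/TAZ-dKO (0.194 FPKM) above WT (0.115 FPKM), and EDIL3 had YAP/TAZ-dKO above both RAP2A/B/C-tKO and WT. By group, the ranges of LATS1/2-dKO and of the next group never overlapped, while the lower of the RAP2A/B/C-tKO groups and WT at 40 kPa overlapped for TNNC1, PROK1, OLFML1 and LUM.

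Stiffness moved none of the 6 past the threshold. Called at an adjusted p below 0.05 were 0 of 6 in LATS1/2-dKO, against 0.708% of all genes tested, 0 of 6 in RAP2A/B/C-tKO, against 3.87%, 0 of 6 in YAP/TAZ-dKO, against 0.347%, and 0 of 6 in WT, against 0.986%. At such shares 0 of 6 does not set the members apart from other genes. EDIL3, NRG1, OLFML1 and PROK1 entered the test through their LATS1/2-dKO libraries alone. Median fragments per library were 0.724 in WT and 1.36 in YAP/TAZ-dKO for NRG1. For OLFML1 they were 0.811 and 0.366, so a missing call there says little. Unadjusted p values below 0.05 from limma were those of NRG1 and EDIL3 in LATS1/2-dKO, of PROK1 and TNNC1 in RAP2A/B/C-tKO and of PROK1 in WT. None was called under any of the alternatives. EDIL3 differed between 40 and 1 kPa in LATS1/2-dKO by 0.29 (95% interval 0.04 to 0.53, limma adjusted p = 0.292), and by 0.16 without replicate 1 at 40 kPa, the library in which AT-rich genes stood high. NRG1 in LATS1/2-dKO differed by -0.22 (-0.41 to -0.04, limma adjusted p = 0.274), with every library at 40 kPa below every one at 1 kPa. OLFML1 had the narrowest interval in LATS1/2-dKO, 0.05 (-0.12 to 0.22). The fit shares the spread of a gene over all 24 libraries, so this width does not describe the LATS1/2-dKO libraries alone.

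TNNC1 differed by -0.28 between 40 and 1 kPa in RAP2A/B/C-tKO (-0.54 to -0.01, limma adjusted p = 0.214), while in WT it differed by 0.26 (-0.01 to 0.52, limma adjusted p = 0.428). The difference of these responses, RAP2A/B/C-tKO minus WT, was -0.54 (-0.91 to -0.16) with an unadjusted limma p of 0.00762 and an adjusted p of 0.645. PROK1 differed by 0.25 in RAP2A/B/C-tKO (0.06 to 0.43, limma adjusted p = 0.115) and by 0.19 in WT (0.005 to 0.37, limma adjusted p = 0.393). Without replicate 2 of WT at 40 kPa, the highest WT library for both genes, the WT differences were 0.10 for TNNC1 and 0.11 for PROK1. Of the differences between responses, LATS1/2-dKO minus WT, 0 of 6 were called, against 0.0632% of all genes, and of those of RAP2A/B/C-tKO minus WT also 0 of 6, against 0.0505%. The 95% intervals of the responses reach up to 0.61 in size, so a missing call does not show equal levels at 40 and 1 kPa.

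**Figure D4:**
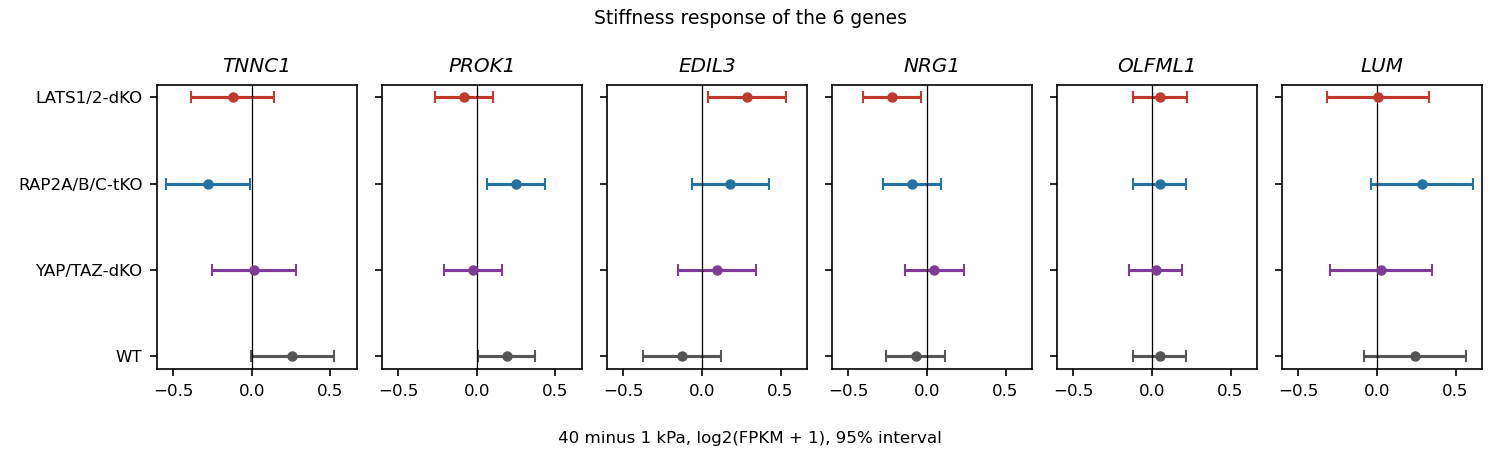
Difference between 40 and 1 kPa on the log2(FPKM + 1) scale (horizontal axis) for each of the 6 genes in the 4 genotypes (vertical axis), with 95% intervals from limma (3 libraries per group). No point passed the adjusted threshold; EDIL3 in LATS1/2-dKO lies at 0.29 and TNNC1 in RAP2A/B/C-tKO at -0.28.

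The relatives of the 6 genes mostly did not share their pattern. Of 7 other troponin genes, 2 were tested, TNNT2 and TNNT1. Of all genes tested, 16.0% were called higher in LATS1/2-dKO and 17.8% lower. TNNT2 passed the filter through its LATS1/2-dKO libraries alone, so its rise is a description and nothing is read from its call. TNNT2, the cardiac troponin T that forms a complex with troponin C, had 3.57 ± 1.0 FPKM in LATS1/2-dKO and 0.013 ± 0.0318 FPKM in WT (SD, n = 6 each), a difference of 2.15. TNNT1, the slow skeletal troponin T, had 37.9 ± 6.04 FPKM in LATS1/2-dKO and 28.1 ± 4.37 FPKM in WT (0.42, limma adjusted p = 0.000158), but fell by 1.30 in RAP2A/B/C-tKO relative to YAP/TAZ-dKO (limma adjusted p = 2.47e-11), opposite in direction to TNNC1. TNNT2 was listed at 0 in all 6 YAP/TAZ-dKO libraries. PROK2, PROKR1 and PROKR2, the second prokineticin and the prokineticin receptors, were not tested. PROK2 averaged 0.308 FPKM in LATS1/2-dKO and 0.49 FPKM in WT, PROKR1 averaged 0.00719 FPKM in LATS1/2-dKO and 0.0289 FPKM in WT, and PROKR2 was listed at 0 in all 24 libraries.

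Around EDIL3, 3 of 4 related genes were tested. MFGE8, its nearest relative in domain structure, fell in LATS1/2-dKO (36.9 ± 3.23 FPKM, against 52.2 ± 3.08 FPKM in WT, SD, n = 6 each; -0.49, limma adjusted p = 9.25e-06). The integrin subunits ITGAV (0.03, limma adjusted p = 0.853) and ITGB5 (-0.02, limma adjusted p = 0.876) did not pass. Relative to YAP/TAZ-dKO, RAP2A/B/C-tKO cells had ITGAV higher by 0.83 and ITGB5 by 0.73, while MFGE8 fell by 0.54, all called, and MFGE8 shared its direction with EDIL3. Of 10 other EGF-family ligands, 4 were tested and 1 rose in LATS1/2-dKO, HBEGF (5.23 ± 0.607 FPKM, against 3.06 ± 0.545 FPKM in WT; 0.62, limma adjusted p = 1.67e-06). In RAP2A/B/C-tKO relative to YAP/TAZ-dKO, 3 of these 4 rose, HBEGF by 0.70, EGF by 0.62 and NRG4 by 0.89, where 26.5% of all genes tested were called higher.

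All 4 ERBB receptors were measured. ERBB2, the partner of ERBB3 and ERBB4, had 25.3 ± 3.17 FPKM in LATS1/2-dKO and 22.1 ± 1.51 FPKM in WT (SD, n = 6 each; 0.18, limma adjusted p = 0.11). ERBB4 rose in LATS1/2-dKO (2.24 ± 0.3 FPKM, against 1.68 ± 0.483 FPKM in WT, SD, n = 6 each; 0.29, limma adjusted p = 0.0303), and ERBB3 had 2.05 ± 1.07 FPKM in LATS1/2-dKO and 2.55 ± 1.21 FPKM in WT (-0.23, limma adjusted p = 0.469). EGFR also rose (0.30, limma adjusted p = 0.00016). Of 9 other olfactomedin-domain genes, 2 were tested and 0 were called in LATS1/2-dKO minus WT. OLFM2 had 7.12 FPKM in LATS1/2-dKO and 5.28 FPKM in WT (0.33, limma adjusted p = 0.0601). None of the 15 other small leucine-rich proteoglycans reached the filter, and decorin (DCN) was listed at 0 in every library. Over all genes tested the median LATS1/2-dKO minus WT difference was -0.01.

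For comparison, of 20 tested genes of a published YAP/TAZ/TEAD signature, 15 rose and 1 fell in LATS1/2-dKO (median difference 0.62), where 16.0% of all genes tested were called higher and 17.8% lower. In RAP2A/B/C-tKO relative to YAP/TAZ-dKO, 17 rose and 2 fell (median 0.97), where 26.5% were called higher and 25.4% lower. CTGF, a secreted matricellular target of YAP, had 76.2 FPKM in LATS1/2-dKO, 48.7 in RAP2A/B/C-tKO, 0.226 in YAP/TAZ-dKO and 14.5 in WT. ANKRD1, a nuclear ankyrin-repeat protein, had 43.9 FPKM in LATS1/2-dKO, 19.0 in RAP2A/B/C-tKO, 0.0622 in YAP/TAZ-dKO and 2.45 in WT. In both, RAP2A/B/C-tKO lay closer to LATS1/2-dKO than it did in any of the 6 genes, by the ratio of means. Across the 18 libraries other than LATS1/2-dKO, the correlation of log2(FPKM + 1) with CTGF was 0.95 for LUM, 0.936 for TNNC1, 0.776 for PROK1, 0.758 for OLFML1, 0.352 for NRG1 and -0.608 for EDIL3. These values describe 3 clusters of libraries and carry no test. Between members without the LATS1/2-dKO libraries, the coefficient ran from -0.569 for TNNC1 with EDIL3 to 0.853 for TNNC1 with LUM.

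The genes nearest in pattern over the 24 libraries were led, by correlation of log2(FPKM + 1), by the step between LATS1/2-dKO and the rest. COL3A1, the fibrillar collagen III chain, was nearest to OLFML1 (r = 0.994), and the calpain-family gene CAPN6 was nearest to NRG1 (r = 0.992) and the second nearest to PROK1 (r = 0.992) after RP11-54H7.4 (r = 0.994). TNNT2 was nearest to EDIL3 (r = 0.988), followed by the growth factor PDGFD (r = 0.986) and PGRMC1 (r = 0.985). TNNC1 was nearest to the decoy receptor TNFRSF10D (r = 0.983), PDZD4 and AC006273.5 (r = 0.982 each). For LUM the nearest genes were PSMG1 (r = 0.977), the integrin subunit ITGB8 (r = 0.976) and MRPS6 (r = 0.974). Several of these nearest genes were not low in WT. PSMG1 averaged 206.0 FPKM in LATS1/2-dKO and 139.0 FPKM in WT, and MRPS6 64.5 and 39.9 FPKM. PGRMC1 averaged 155.0 FPKM in LATS1/2-dKO and 89.2 FPKM in WT, and TNFRSF10D 22.1 and 9.7 FPKM.

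Within 1 Mb of the 6 genes, the median LATS1/2-dKO minus WT difference was 0.07 over 44 genes around TNNC1, 0.11 over 26 around PROK1, 0.09 over 5 around EDIL3, 0.16 over 7 around NRG1 and 0.05 over 16 around OLFML1. Around LUM 1 gene was tested, LINC01619, at -0.74. Called higher were 10 of the 44 near TNNC1, 10 of the 26 near PROK1, 1 of the 5 near EDIL3, 4 of the 7 near NRG1 and 3 of the 16 near OLFML1, against 16.0% of all genes tested. The gene called higher near EDIL3, CTD-2269F5.1, passed the filter through its LATS1/2-dKO libraries alone. Called lower were 1 near PROK1, 1 near EDIL3, 2 near OLFML1 and the gene near LUM. NISCH, which starts at the other side of the TNNC1 5′ end on the opposite strand, had 40.8 FPKM in LATS1/2-dKO and 41.0 FPKM in WT (limma adjusted p = 0.945). The largest rise near PROK1 was that of LAMTOR5-AS1, with 36.3 FPKM in LATS1/2-dKO and 10.0 FPKM in WT (1.79, limma adjusted p = 3.35e-07), while LAMTOR5 itself had 153.0 FPKM in LATS1/2-dKO and 147.0 FPKM in WT (limma adjusted p = 0.323). VCAN, which encodes the proteoglycan versican and is the next gene tested before EDIL3, fell by 0.99 (6.09 FPKM in LATS1/2-dKO and 13.1 FPKM in WT, limma adjusted p = 2.94e-09).

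At EDIL3 the antisense gene CTD-2269F5.1 starts 366 bases inside the 5′ end of EDIL3 and runs the other way. It had 1.42, 2.31 and 0.859 FPKM at 40 kPa and 1.96, 2.34 and 3.39 FPKM at 1 kPa in LATS1/2-dKO. In YAP/TAZ-dKO it was listed at 0 in all 6 libraries, and in WT it ranged between 0 and 0.437 FPKM. It passed the filter of 1 FPKM in 3 libraries through its LATS1/2-dKO libraries alone. Its LATS1/2-dKO minus WT difference, 1.44, is therefore a description, and nothing is read from its call. The kit was stranded per the labels' protocols, but no source used here gives the strand setting of the quantification, so fragments of the overlap cannot be assigned with certainty. OLFML1 lies within CTD-2516F10.2, an antisense gene on the minus strand, which had 0.596 FPKM in LATS1/2-dKO and 0.521 FPKM in WT (limma adjusted p = 0.778).

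**Figure D5:**
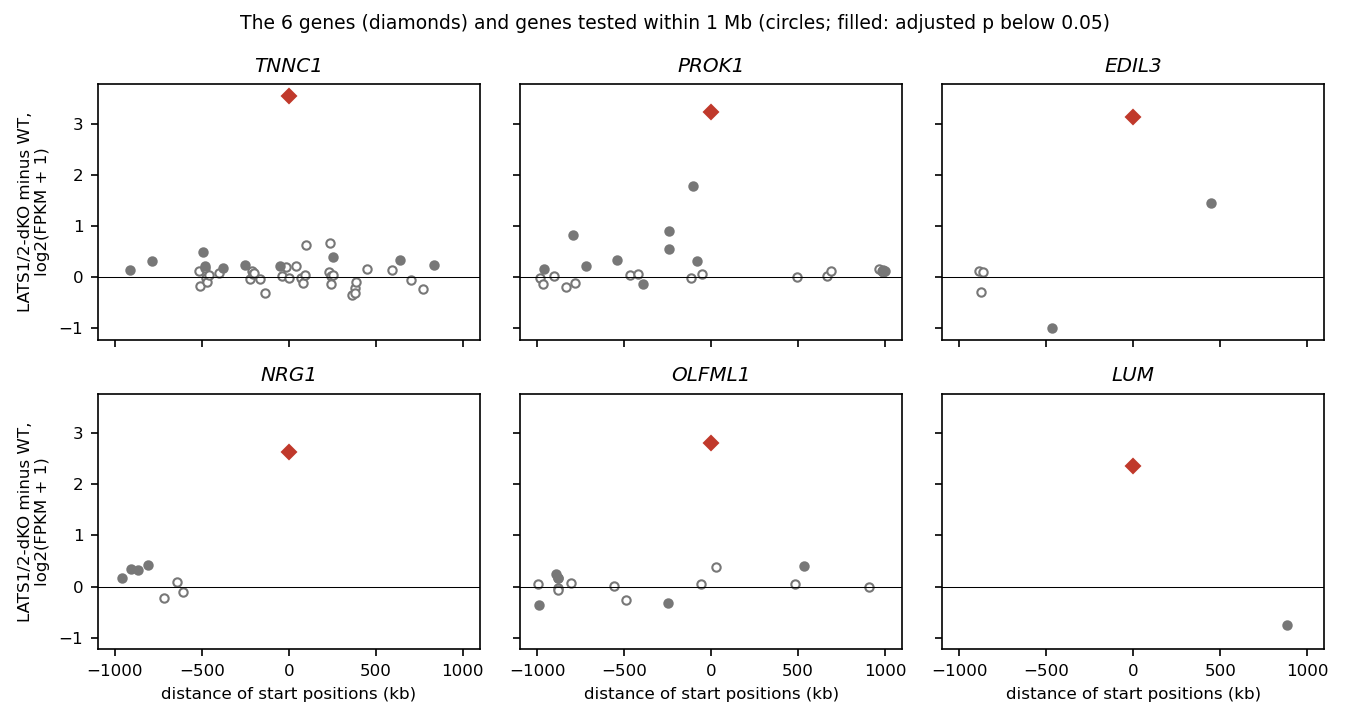
LATS1/2-dKO minus WT difference on the log2(FPKM + 1) scale (vertical axis) for each of the 6 genes (red diamonds) and for the genes tested within 1 Mb (grey circles, filled where the adjusted p was below 0.05), by the distance between start positions in kb (horizontal axis). The diamonds lie between 2.35 and 3.54; the highest neighbours are LAMTOR5-AS1 near PROK1 (1.79) and CTD-2269F5.1 near EDIL3 (1.44).

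The levels of the targeted genes, depth and marker genes bear on all of this. LATS1 was lower in LATS1/2-dKO (5.44 FPKM, against 12.6 FPKM in WT) and LATS2 was not (3.3 FPKM, against 2.47 FPKM in WT), YAP1 and WWTR1 (TAZ) were lower in YAP/TAZ-dKO, and of the RAP2 genes RAP2A alone was lower in RAP2A/B/C-tKO. A gene-level FPKM need not fall with a small edit, so the tables check the LATS2 and RAP2 labels no further. The depth, read from the deposited intervals, was 19.95 to 43.63 M fragments per library. Of 6 genes known in HEK293 cells, VIM, LIN28B and NEFL were present in all lines and NEFM and INA were at or near 0. PAX2, the other, was low (0.146 FPKM in LATS1/2-dKO, 0.377 in WT and 0.99 in YAP/TAZ-dKO). Of the 4 tested in LATS1/2-dKO minus WT, NEFL was called higher and PAX2 lower (limma adjusted p = 0.0129 and 0.0183). Of 6 neuronal markers 4 were tested and 2 were called lower, SYP and MAP2, against 17.8% of all genes tested. Of 12 striated muscle markers, 1 was tested, TNNT2. It passed the filter through its LATS1/2-dKO libraries alone, so nothing is read from its call. The summed level was 4.22 to 7.16 FPKM in LATS1/2-dKO and 1.32 to 2.39 FPKM in WT, and MYH7 and MYL7 were at or near 0. Of 8 fibroblast markers, 2 were tested. COL3A1 passed the filter through its LATS1/2-dKO libraries alone, so nothing is read from its call. COL1A1 was not called (6.18 FPKM in LATS1/2-dKO and 5.0 FPKM in WT, limma adjusted p = 0.219). The summed levels were 14 to 18.7 FPKM in LATS1/2-dKO and 4.61 to 6.12 FPKM in WT, with DCN and COL1A2 at or near 0. Of 6 epithelial markers 4 were tested and all 4 were called higher, led by KRT8 and KRT18, against 16.0% of all genes tested. The sums were 893.0 to 988.0 FPKM in LATS1/2-dKO and 288.0 to 507.0 FPKM in WT. CDH1 and EPCAM were not tested, and EPCAM was at or near 0. Markers also moved in RAP2A/B/C-tKO relative to YAP/TAZ-dKO, the comparison in which the 6 genes were tested. Epithelial sums were 534.0 to 613.0 FPKM in RAP2A/B/C-tKO and 74.6 to 90.1 FPKM in YAP/TAZ-dKO. Of the 4 epithelial markers tested 3 were called higher, KRT8, KRT18 and KRT19, against 26.5% of all genes tested. The sums of the 6 HEK293 genes were 271.0 to 332.0 FPKM in RAP2A/B/C-tKO and 619.0 to 767.0 FPKM in YAP/TAZ-dKO. These sums follow NEFL, a neurofilament subunit, which averaged 12.6 FPKM in RAP2A/B/C-tKO and 496.0 FPKM in YAP/TAZ-dKO, and do not describe the set. Of the 4 HEK293 genes tested, 2 were called lower in RAP2A/B/C-tKO, NEFL and PAX2, against 25.4% of all genes tested. VIM went the other way and was called higher (264.0 FPKM in RAP2A/B/C-tKO and 159.0 FPKM in YAP/TAZ-dKO). LIN28B was not called (27.9 and 26.8 FPKM, limma adjusted p = 0.406). The part of these shifts in the levels of the 6 genes was not tested, and in bulk RNA more cells expressing a gene and more RNA per cell cannot be told apart.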

How the data were processed

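The authors deposited 1 gene table of FPKM values per library. Per the submitters' processing notes, these came from STAR 2.4.2a and Cufflinks 2.2.1 on hg19. No source used here gives the annotation release or the treatment of reads with several matches. Per the labels' protocols, libraries were poly(A) stranded with index set A or B; the labels do not say which library had which, so a batch test was not possible. Each table has 60350 entries under 58266 symbols. The 338 symbols on several entries were summed, and 92 with a failed status were left out. FPKM holds no counts; depth was estimated from the deposited confidence intervals of 112 to 144 single-transcript genes per library, and fragment numbers given beside genes come from the same widths.

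Tests ran on log2(FPKM + 1) over the 15828 genes with at least 1 FPKM in at least 3 libraries, with no further scaling. limma 3.58.1 in R 4.3.3 was fitted over all 24 libraries with 1 mean per group, a trend of the spread on the level and 16 residual degrees of freedom. It was two-sided, with Benjamini-Hochberg adjustment over all genes tested within each of the comparisons and a threshold of 0.05. It was tested on simulated data. Genotype differences are means over both stiffnesses. P-values measure the spread between these libraries.

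The 6 genes and all gene lists were chosen with earlier results of these data known. Named besides the members were, by a fixed rule, the targeted genes, called genes of 8 lists (troponins, prokineticins and receptors, EDIL3 relatives and integrins, EGF-family ligands, ERBB receptors, olfactomedin-domain genes, small leucine-rich proteoglycans and a YAP/TAZ/TEAD signature), the 3 genes nearest in pattern to each member and the nearest genes on the chromosome. LAMTOR5-AS1 and the single marker genes were chosen for naming after their values were seen. GC content and strand came from GENCODE transcripts matched by gene, with values for 85.3% of the genes tested. The alternatives were another pseudocount (0.1), no filter, median-ratio scaling, limma without a trend, the compared groups alone, the replicate number as a block, leaving out each library and leaving out both libraries that follow GC content.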

Additional observations from a re-analysis of the deposited data

How the results depend on the processing

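No tested or described difference of the 6 genes turned its direction in a called value, and no stiffness response of theirs was called, under the alternatives run. With a pseudocount of 0.1 in place of 1 the 6 genes' differences were larger in LATS1/2-dKO minus WT and in RAP2A/B/C-tKO minus YAP/TAZ-dKO. Counts over all genes did move. For the stiffness response they were 156 in WT, 612 in RAP2A/B/C-tKO, 112 in LATS1/2-dKO and 55 in YAP/TAZ-dKO. With the compared groups alone they came to 45 in WT, 8 in RAP2A/B/C-tKO and 2 in LATS1/2-dKO. Without both libraries that follow GC content they came to 1006 in WT, 472 in LATS1/2-dKO and 391 in YAP/TAZ-dKO, and RAP2A/B/C-tKO minus WT came to 4362 against 2528. With no filter RAP2A/B/C-tKO had 387, and with scaling LATS1/2-dKO had 51. Scaling moved the split of higher and lower calls in WT to 99 and 84, against 51 and 105, and in RAP2A/B/C-tKO to 305 and 341, against 156 and 456. The difference of responses LATS1/2-dKO minus WT had 10 calls, 22 with no filter, 20 with scaling, 5 with the compared groups alone and 211 without both libraries. That of RAP2A/B/C-tKO minus WT had 8 calls, 3 with pseudocount 0.1, 13 with no filter, 4 with the compared groups alone and 20 without both libraries. Neither of both libraries belongs to WT or YAP/TAZ-dKO, so leaving them out did not change the stiffness differences of these lines. With the compared groups alone the differences are also unchanged. In these cases the estimate of the spread differed. The cause of the other shifts was not tested. Leaving out 1 library gave 46 to 104 calls in WT (lowest without replicate 3 at 1 kPa), 258 to 1141 in RAP2A/B/C-tKO (lowest without replicate 1 at 1 kPa, highest without replicate 1 at 40 kPa), 17 to 255 in LATS1/2-dKO (lowest without replicate 2 at 1 kPa, highest without replicate 3 at 40 kPa) and 29 to 43 in YAP/TAZ-dKO. It gave 7 to 63 for the difference of responses of LATS1/2-dKO minus WT and 5 to 12 for RAP2A/B/C-tKO minus WT. In the exact permutation test of RAP2A/B/C-tKO against YAP/TAZ-dKO it gave -0.247 to -0.155 for EDIL3 (p from 0.01 to 0.06) and 0.15 to 0.218 for NRG1 (p from 0.005 to 0.05). EDIL3 missed the threshold without replicate 3 of RAP2A/B/C-tKO at 1 kPa, replicate 2 of RAP2A/B/C-tKO at 40 kPa or replicate 3 of YAP/TAZ-dKO at 40 kPa, and NRG1 without replicate 2 of RAP2A/B/C-tKO at 40 kPa. Same-numbered libraries did not deviate together (correlations from -0.247 to 0.149 over 84 pairs; 7 of 24 libraries were closest to their own number), so the replicate number was taken only as a name. With the replicate block the stiffness response in LATS1/2-dKO had 57 calls, that in WT 118 and RAP2A/B/C-tKO minus YAP/TAZ-dKO 8160 against 8219. Median levels of about 3 fragments per library or fewer limit what can be said of the order of the low groups: NRG1 and OLFML1 in all 3 lines other than LATS1/2-dKO, EDIL3 in RAP2A/B/C-tKO and WT, and PROK1, TNNC1 and LUM in YAP/TAZ-dKO.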
